A study of Mus musculus with 4 samples.

Results

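The genes described here are 53 mouse genes whose products attach, move and part the chromosomes in mitosis and then cut the cell in 2. They were chosen by name, for their roles, from the 20066 genes measured above background on 4 two-colour arrays. By role they were 5 spindle checkpoint genes, 11 kinetochore and centromere genes, 3 chromosomal passenger genes, 9 kinesin motors, 6 spindle assembly genes, 5 condensin subunits, 3 chromosome scaffold genes, 6 genes of cohesion and anaphase and 5 of cytokinesis. All 53 passed the filter on dim probes, and 52 were well above background in both channels of every array. Cenpf was the exception, since its R/R signal passed that mark on 3 of 4 arrays.

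In R/R cells both alleles of Cdk4 (R24C) and of Cdk6 (R31C) were mutated, by knock-in of point mutations known to keep INK4 inhibitors from binding these cyclin D-dependent kinases. The wild-type (WT) cells had neither mutation. Both kinds were lines that grew out of fetal liver of a mixed C57BL/6J x CD-1 background after transduction with p185 BCR-ABL1, a leukaemic fusion tyrosine kinase, so every line was transformed. RNA came from asynchronous cultures. R/R clones 1, 2 and 3, in Cy5, were each hybridised with the WT pool in Cy3, and an R/R pool, in Cy3, with the WT pool in Cy5. The comparison asked how R/R lines differed in expression from WT lines. Each R/R clone is 1 line, clones 1 and 2 share the stem of their clone name, and the labels do not say which lines the pools held. The design text speaks of 3 replicates per condition, yet WT cells entered every array as a pool, so the test leaves out the spread of WT lines.

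In a dividing cell the kinetochore is built on centromeres that carry the histone variant CENP-A, and its NDC80 complex grips microtubule ends while the checkpoint kinases delay anaphase until every chromosome is attached. Condensins compact the chromosomes, kinesins and spindle factors shape the spindle, separase opens cohesin, and the midzone and contractile ring split the cell. Transcripts of most of these genes peak in G2 and mitosis, under MuvB complexes that bind the cell cycle genes homology region (CHR) of their promoters and hold them down in resting cells, and NF-Y, which binds CCAAT boxes. In a bulk culture, fewer cells in G2 and mitosis and less RNA per such cell cannot be told apart.

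The promoters below are shown because they belong to the members on which the values below turn. Ndc80 and Anln had the lowest ratios, Cenpa and Cenpm were higher in R/R cells on every array, and Kif15 differed most between clones. Each run is a RefSeq promoter on GRCm38.p6 of 300 bases, 250 before and 50 after the gene's start, printed 5′ to 3′ on the gene's own strand. Capitals mark a CHR, whose letters are TTTGAA or, in a second form, TTTAAA. They also mark a CCAAT box and any of 4 E2F motifs (TTTCCCGC, TTTGGCGC, TTTCGCGC and TTTGCCGC). Both strands were searched, and on the opposite strand the first CHR form appears as TTCAAA and the CCAAT box as ATTGG. Ndc80 lies at chr17:71526808-71527107 on the minus strand, Anln at chr9:22389157-22389456 on the minus strand, Cenpa at chr5:30666636-30666935 on the plus strand, Cenpm at chr15:82244287-82244586 on the minus strand and Kif15 at chr9:122950831-122951130 on the plus strand.
Ndc80: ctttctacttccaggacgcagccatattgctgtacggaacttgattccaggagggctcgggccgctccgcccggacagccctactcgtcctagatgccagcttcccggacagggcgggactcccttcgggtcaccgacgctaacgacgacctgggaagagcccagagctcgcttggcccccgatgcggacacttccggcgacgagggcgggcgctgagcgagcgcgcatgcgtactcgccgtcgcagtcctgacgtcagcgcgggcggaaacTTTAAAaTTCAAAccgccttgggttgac
Anln: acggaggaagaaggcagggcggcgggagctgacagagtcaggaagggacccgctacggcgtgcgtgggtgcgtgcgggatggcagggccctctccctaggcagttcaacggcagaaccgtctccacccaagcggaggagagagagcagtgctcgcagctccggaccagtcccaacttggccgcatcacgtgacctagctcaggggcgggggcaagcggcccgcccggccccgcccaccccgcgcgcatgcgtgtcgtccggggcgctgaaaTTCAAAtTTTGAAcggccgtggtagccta
Cenpa: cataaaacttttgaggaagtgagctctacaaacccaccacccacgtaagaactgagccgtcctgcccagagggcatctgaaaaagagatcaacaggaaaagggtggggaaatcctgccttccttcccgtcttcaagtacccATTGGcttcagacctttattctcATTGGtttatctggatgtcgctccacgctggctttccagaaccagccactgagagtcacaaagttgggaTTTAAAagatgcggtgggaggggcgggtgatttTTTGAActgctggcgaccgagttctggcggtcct
Cenpm: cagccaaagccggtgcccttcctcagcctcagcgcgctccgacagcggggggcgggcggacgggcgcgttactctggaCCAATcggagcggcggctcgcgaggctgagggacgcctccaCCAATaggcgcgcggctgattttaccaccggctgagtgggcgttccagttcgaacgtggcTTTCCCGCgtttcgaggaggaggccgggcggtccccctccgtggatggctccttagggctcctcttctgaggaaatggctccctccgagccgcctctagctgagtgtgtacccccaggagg
Kif15: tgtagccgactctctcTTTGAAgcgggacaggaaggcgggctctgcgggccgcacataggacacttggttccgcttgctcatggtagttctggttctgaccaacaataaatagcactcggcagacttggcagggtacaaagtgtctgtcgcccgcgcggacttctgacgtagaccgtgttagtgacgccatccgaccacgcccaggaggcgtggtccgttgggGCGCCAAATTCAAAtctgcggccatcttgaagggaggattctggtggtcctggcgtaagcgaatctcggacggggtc
Ndc80 holds a TTTAAA and a TTTGAA that begin 23 and 30 bases after the start, with the TTTGAA on the opposite strand to the gene. Anln holds a back-to-back pair of TTTGAA at 22 and 29 bases after the start. Cenpa has TTTAAA before and TTTGAA after its start, with a pair of CCAAT boxes upstream. Cenpm has CCAAT boxes and an E2F motif but neither CHR form, and in Kif15 an E2F motif touches a TTTGAA.

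These letters were common among the members. Of the 53 genes 46 had a promoter in the RefSeq table, and 32 of the 46 (69.6%) held TTTGAA. The same letters stood in 15.1% of the 9846 tested genes with a promoter and in 20.2% of all 27018 genes of the table. Within 50 bases of the start the share was 63.0% of members, against 4.0% of tested genes. A CCAAT box stood in 69.6% of members and 42.9% of tested genes, and 2 or more boxes in 43.5% and 16.3%. Either CHR form together with a CCAAT box was found in 56.5% of members and 9.5% of tested genes, and an E2F motif in 10.9% and 4.5%. TTTAAA, which reads the same on both strands and was counted once, was in 15.2% of members and 11.2% of tested genes. By role, TTTGAA was found in all 5 cytokinesis promoters and in 7 of 8 motor promoters, and in 5 of 10 kinetochore and centromere promoters. A gene with several starts counted as holding a motif where any of its windows did.

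**Figure D1:**
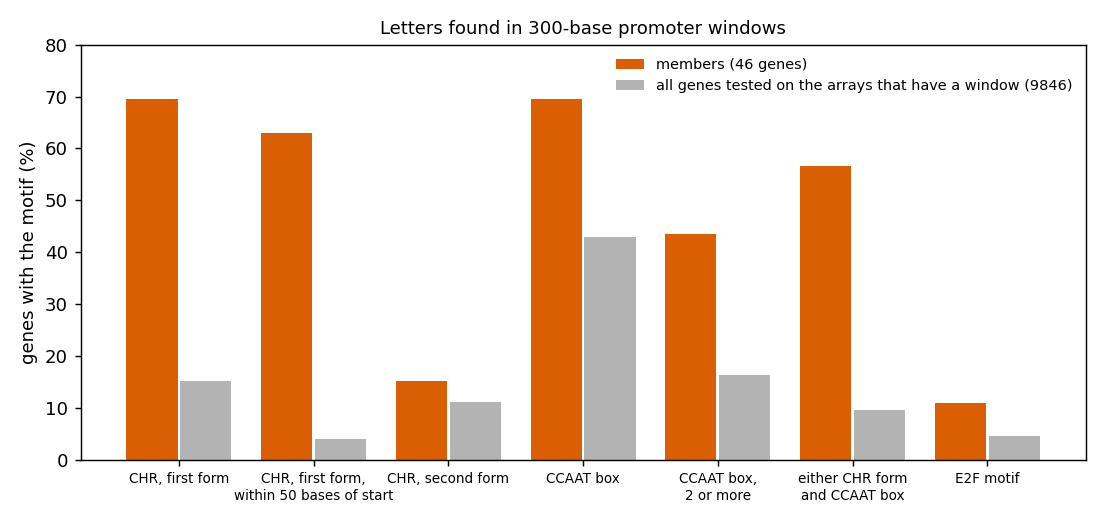
Bars give the percentage of genes whose 300-base promoter window holds each motif, for the 46 members with a window beside the 9846 tested genes with one. The first CHR form is TTTGAA and the second TTTAAA. The widest gap is at TTTGAA within 50 bases of the start, 63.0% of members against 4.0% of tested genes.

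Probes with any spot well above background made up 42.1% to 53.1% of the probes of an array in R/R cells and 47.7% to 49.9% in WT cells. Log2 ratios of a probe's repeated spots on 1 array varied with a median SD of 0.09 to 0.10. Bub1 and Cdca5 have 10 replicate spots per array, with an SD of 0.05 to 0.11. The median SD over the 3 clones was 0.18 for members and 0.17 for all genes tested, and the precision is limited by there being 4 arrays. As a check of the cells, all 10 B lineage markers passed the filter, as did 4 of 6 myeloid, 1 of 6 erythroid and 3 of 5 T lineage markers. Dntt and Rag1, which act in immunoglobulin gene assembly, differed widely between clones. Dntt had log2 ratios of 1.31, -1.67 and 1.92 in clones 1, 2 and 3 and 0.71 in the R/R pool. The adult beta-globin gene Hbb-bt, the erythroid marker that passed, was lower in R/R cells (fitted log2 ratio -1.84, limma adjusted p = 0.0426), though near-identical globin copies leave its source uncertain.

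No member passed the test for a difference between R/R and WT cells (limma with Benjamini-Hochberg adjustment over 20066 genes, threshold 0.05). Among all genes tested 103, or 0.513%, passed, 29 higher and 74 lower in R/R cells, and no gene called had a log2 ratio closer to 0 than 0.74. The fitted ratio, R/R over WT, is the midpoint between the clones' mean and the pool. It ran from -0.55 for Ndc80 to 0.40 for Dlgap5 over the members, and the smallest adjusted p was 0.104, for Ndc80. At an unadjusted p under 0.05 there were 10 members, 7 higher and 3 lower. That is 18.9% of members, against 15.4% of all genes tested (7.27% higher and 8.09% lower), so the members' share lay near the background. One sign on all 4 arrays was shown by 14 members, 9 above 0 and 5 below, or 26.4%, against 30.8% of all genes tested. The 95% intervals of the members' ratios had half-widths of 0.21 to 0.47, and all 53 intervals lay between -1 and 1. An average difference of 2-fold was thus outside the interval of each member, an interval that leaves out any spread of WT lines.

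Most members had ratios a little above 0. The fitted ratio was above 0 for 37 members (69.8%, beside 46.4% of all genes tested) and below 0 for 16. Its median was 0.07 over the members and -0.02 over all genes tested. Clone 2 had the highest member median, 0.17, and clone 3 the lowest, -0.04, with 0.07 in clone 1 and 0.07 in the R/R pool. Above 0 were 34 members in clone 1, 38 in clone 2, 23 in clone 3 and 33 in the pool. Of the 20066 genes tested 9713, 10469, 9361 and 9267 were above 0 on the same arrays. Clone 3 was the lowest clone for 33 of 53 members (62.3%) and for 40.3% of all genes tested, and clone 2 the highest for 27 members (50.9%) and 38.3% of all genes. The clone 2 array also had the largest share of probes well above background in R/R cells, 53.1%, and the clone 3 array the smallest, 42.1%. Clone 2 was also the lowest clone for 8 of 10 B lineage markers (80%, beside 33.45% of all genes tested). The part of either in the members' order was not tested.

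**Figure D2:**
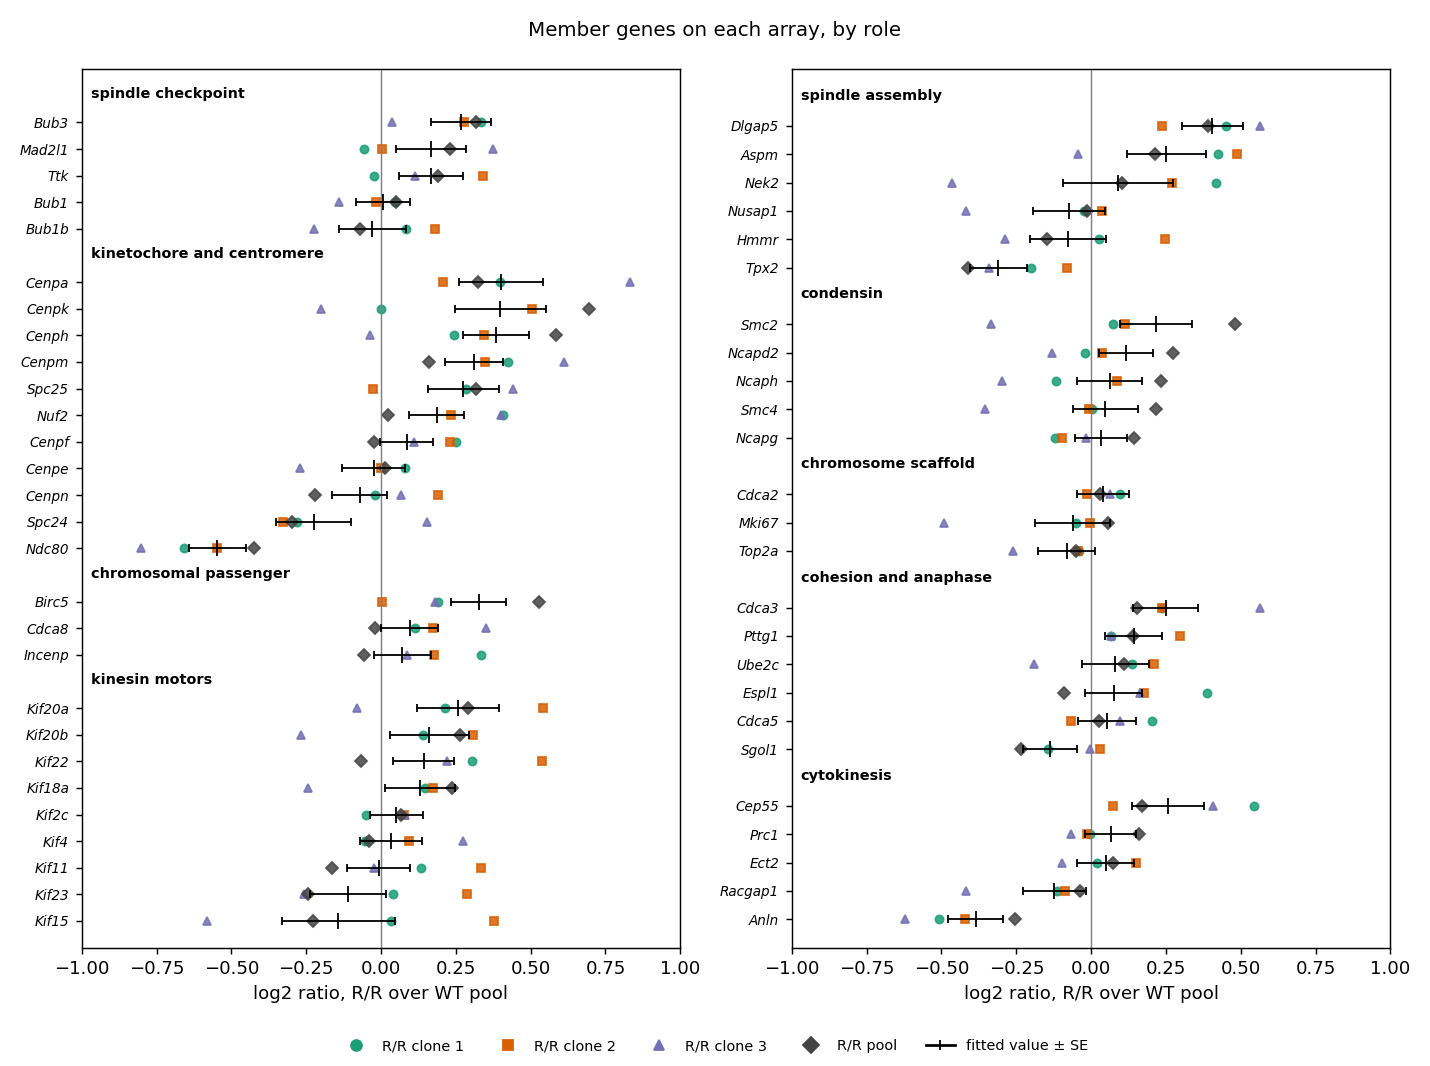
Each row is a member, grouped by role and sorted by fitted value. Points are its log2 ratio, R/R over WT pool, in R/R clones 1, 2 and 3 and the R/R pool, and the bar is the fitted value ± SE. Ndc80 and Anln lie left of 0 on all 4 arrays and Dlgap5 and Cenpa right of it, while for most members the points fall on both sides.

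The spindle checkpoint genes stood slightly above 0, with a median fitted ratio of 0.17 over 5 genes and none called. Bub3, the adaptor that brings checkpoint kinases to kinetochores, had log2 ratios of 0.33, 0.28 and 0.04 in R/R clones 1, 2 and 3 and 0.32 in the R/R pool. All 4 lay above 0, and clone 3 stood nearest to it. The fit gave 0.27 ± 0.10 (SE, 3 clones and 1 pool; limma adjusted p = 0.301). Ttk, which encodes the checkpoint kinase MPS1, had -0.02, 0.34 and 0.11 in the clones and 0.19 in the pool, and Mad2l1, the inhibitor of the anaphase-promoting complex, had -0.06, 0.00 and 0.37 in the clones and 0.23 in the pool. By the probes used, clone 1 was just below 0 for both. Dimmer kept probes of Mad2l1 lay above 0 on all 4 arrays, with clone 1 at 0.17 and 0.14. The kinase gene Bub1 (fitted ratio 0.01) and its relative Bub1b (-0.03), part of the mitotic checkpoint complex, took both signs over the arrays.

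The kinetochore and centromere genes spread widest, from the lowest member of all to 4 of the higher ones. Of the 11, 5 had an unadjusted p under 0.05 (45%, beside 15.4% of all genes tested), 4 higher and 1 lower in R/R cells. Among 27 further kinetochore and centromere genes outside the members the share was 18.5%. Ndc80, which encodes the subunit that contacts microtubules, was lower in R/R cells on every array. Its processed intensity was 414, 528 and 460.4 in R/R clones 1, 2 and 3 and 586 in the R/R pool, against 749.9, 859, 889.6 and 836 in the WT pool on the same arrays. The channels did not overlap, though the WT values come from a pool and not from separate WT lines. How many of all genes tested had channels without overlap was not counted. The log2 ratios were -0.66, -0.55 and -0.80 in the clones and -0.43 in the pool, and the fit gave -0.55 ± 0.10 (1.46-fold higher in WT; limma adjusted p = 0.104). Without the dye term, which counts the pool as another replicate, the value was -0.61 with an adjusted p of 0.0128, in a fit that called 1135 genes in all.

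The other subunits of the NDC80 complex did not share this value. Nuf2, which pairs with Ndc80 in the microtubule-binding arm, had 0.41, 0.24 and 0.40 in the clones and 0.02 in the R/R pool, all above 0. Spc25, of the inner dimer, had 0.28, -0.03 and 0.44 in the clones and 0.32 in the pool. Spc24, its partner, had -0.28, -0.33 and 0.15 in the clones and -0.30 in the pool, so clone 3 alone lay above 0. Fitted ratios were 0.19 ± 0.09 for Nuf2, 0.28 ± 0.12 for Spc25 and -0.22 ± 0.13 for Spc24, with limma adjusted p of 0.405, 0.351 and 0.446. Differences between the subunits were not tested. The values of Nuf2, Spc24 and Spc25 are given by their complex, chosen after their values were seen.

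**Figure D3:**
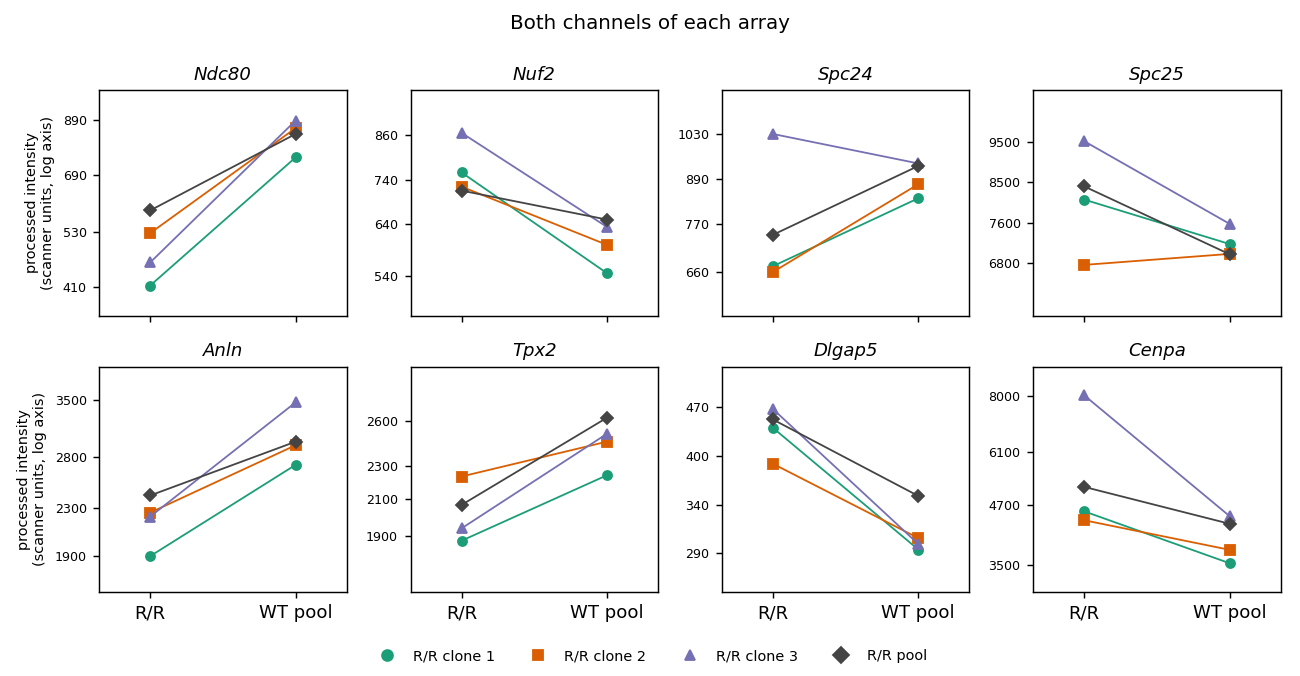
For 8 members, the processed intensity of the R/R channel (left) and of the WT pool channel (right) on each of the 4 arrays, on a log axis in scanner units. Lines join the channels of 1 array. For Ndc80 the R/R values, 414 to 586, all lie below the WT values, 749.9 to 889.6, whereas for Spc24 the line of clone 3 slopes against the other lines.

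The centromere genes with the higher ratios were Cenpa, Cenpk, Cenph and Cenpm. Cenpa, the centromeric histone H3 variant, had processed intensities of 4560.2, 4365, 8036 and 5137 in R/R clones 1, 2 and 3 and the R/R pool, against 3539, 3778, 4454 and 4290.4 in the WT pool. Clone 3 stood far above the rest, and clone 2 fell within the WT range. The log2 ratios were 0.40, 0.21 and 0.83 in the clones and 0.32 in the pool, with a fit of 0.40 ± 0.14 (1.32-fold; limma adjusted p = 0.273). Cenpm, of the constitutive centromere-associated network, had 0.42, 0.35 and 0.61 in the clones and 0.16 in the pool, all above 0, and a fit of 0.31 ± 0.10 (adjusted p = 0.236). Clone 3 was the highest clone for both genes.

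Cenph and Cenpk, partners in the same network, had clone 3 lowest instead. Cenph had 0.25, 0.35 and -0.04 in clones 1, 2 and 3 and 0.58 in the R/R pool (fit 0.38 ± 0.11, limma adjusted p = 0.206). Cenpk had -0.00, 0.51 and -0.20 in the clones and 0.70 in the pool (fit 0.40 ± 0.15, adjusted p = 0.305). By the probes used, the pool was the highest array for both. A second, dimmer Cenpk probe had 0.11, 0.785 and 0.06 in the clones and 0.48 in the pool. There clone 2, not the pool, was highest. With the clones alone the probes used gave 0.18 for Cenph and 0.10 for Cenpk. Much of both fitted values thus came from the pool array, the one with the dyes turned. The pool's content and the dye cannot be told apart there. Of the rest, the kinesin gene Cenpe (fitted ratio -0.02), Cenpf (0.09), which encodes a large kinetochore and nuclear matrix protein, and Cenpn (-0.07), which reads CENP-A nucleosomes, took both signs. Cenpf was dim on every array, and the background offset draws such ratios towards 0.

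The chromosomal passenger genes were all above 0 in the fit, with a median of 0.10. Birc5, which encodes survivin, had 0.19, 0.00 and 0.18 in clones 1, 2 and 3 and 0.53 in the R/R pool. By this brightest probe the pool stood above every clone. By the dimmer kept probes of Birc5 clone 3, at 0.36 and 0.22, stood above the pool, at 0.23 and 0.21. The fit of the brightest probe was 0.33 ± 0.09 (limma adjusted p = 0.204), against a clone mean of 0.12. Incenp, the scaffold that activates Aurora B, had 0.34, 0.18 and 0.09 in the clones and -0.06 in the pool. Cdca8, which encodes borealin, had 0.11, 0.17 and 0.35 in the clones and -0.02 in the pool. By the probes used, the pool was thus the array below 0 in these 2 genes. By a dimmer kept probe of Cdca8 clone 2, at -0.14, lay below 0 as well as the pool, at -0.08. With the clones alone the median of the group was 0.20.

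The kinesin motors had a median SD over clones of 0.23, against 0.18 for all 53 members and 0.26 for the spindle assembly genes. None of the 9 had an unadjusted p under 0.05. All 9 were above 0 in clone 2, 7 in clone 1, 4 in the R/R pool and 3 in clone 3. Clone 2 was the highest clone for 7 of the 9 (77.8%, beside 38.3% of all genes tested). Clone 3 was the lowest for 7 (77.8%, beside 40.3%). Kif15, a plus-end motor that backs up Kif11 in holding the spindle poles apart, had 0.03, 0.38 and -0.58 in clones 1, 2 and 3 and -0.23 in the pool. Its range over the clones, 0.96, was the widest of the 53 members. Kif20a, a motor of the central spindle, had 0.21, 0.54 and -0.08 in the clones and 0.29 in the pool, and its relative Kif20b, needed in late cytokinesis, had 0.14, 0.31 and -0.27 in the clones and 0.26 in the pool. In each of these 3 genes clone 2 was highest and clone 3 lowest.

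Kif22, a chromokinesin that pushes chromosome arms, had 0.30, 0.54 and 0.22 in the clones and -0.07 in the R/R pool. Here the clones stood together above 0 and the pool did not. Fitted ratios were 0.26 ± 0.14 for Kif20a, 0.14 ± 0.10 for Kif22 and 0.16 ± 0.13 for Kif20b, with limma adjusted p of 0.431, 0.536 and 0.587. The others were Kif18a (0.13), which dampens chromosome movements, the microtubule depolymerase gene Kif2c (0.05), the chromokinesin gene Kif4 (0.03), the bipolar motor gene Kif11 (-0.01) and Kif23 (-0.11), the motor of centralspindlin. The motor median was 0.05 in the fit, 0.31 in clone 2 and -0.08 in clone 3, and 0.13 with the mean of a gene's probes. With the clones alone Kif20b had 0.06.

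Among the spindle assembly genes, Dlgap5 and Tpx2 stood on opposite sides of 0. Dlgap5, which encodes the microtubule-bundling protein HURP, had processed intensities of 439, 389.5 and 467 in R/R clones 1, 2 and 3 and 451 in the R/R pool, against 293, 305, 299 and 350.2 in the WT pool. The channels did not overlap, again with no share over all genes to set beside it. The log2 ratios were 0.45, 0.24 and 0.56 in the clones and 0.39 in the pool, with a fit of 0.40 ± 0.10 (1.32-fold; limma adjusted p = 0.175). Tpx2, which activates Aurora A on the spindle, had -0.20, -0.08 and -0.34 in the clones and -0.41 in the pool, all below 0, and a fit of -0.31 ± 0.10 (adjusted p = 0.235). By this probe its channels did not overlap either, at 1874.3 to 2234.2 in R/R cells and 2242.0 to 2623.9 in the WT pool.

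The remaining spindle assembly genes lay below 0 in clone 3. Aspm, a spindle pole protein gene known for its part in brain size, had 0.42, 0.49 and -0.05 in clones 1, 2 and 3 and 0.21 in the R/R pool. Nek2, a centrosome kinase gene, had 0.42, 0.27 and -0.46 in the clones and 0.10 in the pool, a range over clones of 0.88. Clone 3 was the lowest clone for both, as it was for Nusap1 (fitted ratio -0.08), whose product bundles microtubules, and Hmmr (-0.08), which encodes a spindle-pole protein. The group median was 0.01 in the fit, 0.24 in clone 2 and -0.31 in clone 3, and it was -0.04 without clone 1, -0.04 without clone 2 and 0.11 without clone 3.

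The 5 condensin genes shared 1 sign in the R/R pool and the other in clone 3. All 5 were above 0 in the R/R pool, with a median of 0.23, and all 5 below 0 in clone 3, with a median of -0.30. Clone 1 had 2 above 0 and clone 2 had 3. Smc2, one of the ATPase core subunits, had 0.07, 0.11 and -0.33 in clones 1, 2 and 3 and 0.48 in the pool. Ncapd2 had -0.02, 0.03 and -0.13 in the clones and 0.27 in the pool, and Ncaph, the kleisin that closes the ring, had -0.12, 0.09 and -0.30 in the clones and 0.23 in the pool. In each of Smc2, Ncapd2 and Ncaph the pool was the highest array and clone 3 the lowest. Ncapg, a dim member, differed, with clone 3 at -0.02 above clones 1 and 2 at -0.12 and -0.10.

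Fitted ratios of the condensin genes were 0.22 ± 0.12 for Smc2, 0.12 ± 0.09 for Ncapd2, 0.06 ± 0.11 for Ncaph, 0.05 ± 0.11 for the other ATPase gene Smc4 and 0.03 ± 0.09 for Ncapg, the second HEAT-repeat subunit. With the clones alone the signs of Smc2, Ncapd2 and Ncaph turned, to -0.05, -0.04 and -0.11, and the group median was -0.08. Without the dye term the median was -0.02. No direction is therefore given for the group.

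**Figure D4:**
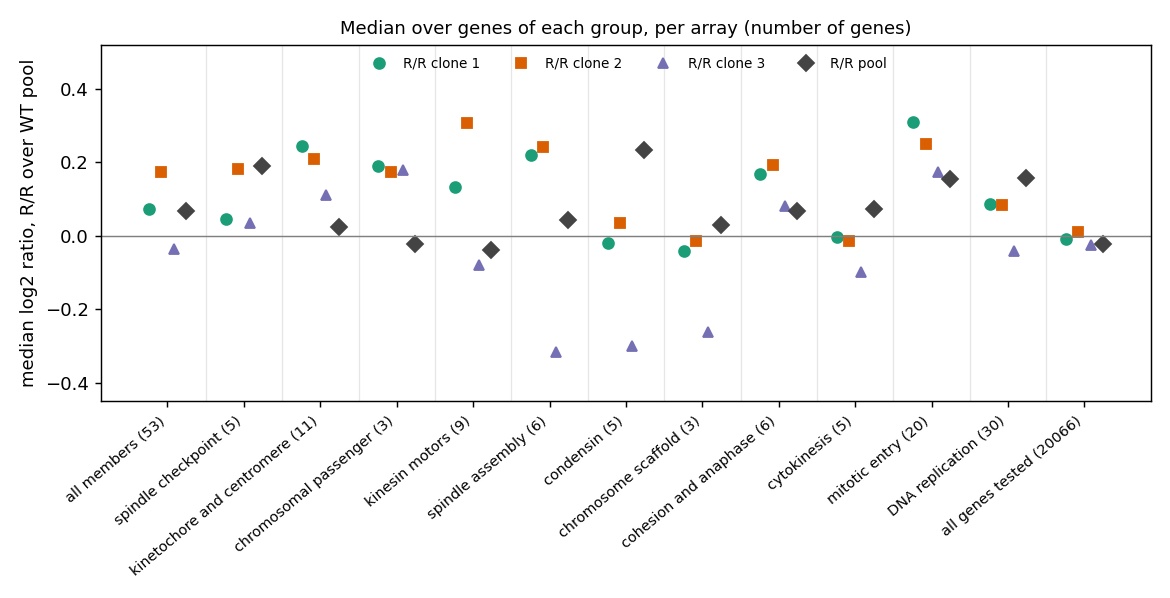
Points are medians, over the genes of each group, of the log2 ratio R/R over WT pool on each of the 4 arrays, and the number of genes is in brackets. Condensin runs from -0.30 in clone 3 to 0.23 in the R/R pool and the kinesin motors from -0.08 in clone 3 to 0.31 in clone 2, while the medians of all genes tested lie near 0 on every array.

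The chromosome scaffold genes lay close to 0. Top2a, the topoisomerase that untangles sister DNA, had -0.04, -0.04 and -0.26 in clones 1, 2 and 3 and -0.05 in the R/R pool. Mki67, whose Ki-67 protein coats mitotic chromosomes and is the usual proliferation marker, had -0.05, -0.00 and -0.49 in the clones and 0.06 in the pool. A second, slightly dimmer kept probe of Mki67 had 0.11, 0.18 and -0.31 in the clones and -0.10 in the pool. The signs of clones 1 and 2 and of the pool thus differed between its probes. Clone 3 was the lowest array for Top2a and, by either probe, for Mki67. The fits were -0.08 ± 0.10 for Top2a and -0.06 ± 0.13 for Mki67 (limma adjusted p = 0.712 and 0.840), and without clone 3 Mki67 had 0.02. Cdca2, which targets protein phosphatase to chromosomes at mitotic exit, had 0.10, -0.01 and 0.06 in the clones and 0.03 in the pool, one of the narrowest spreads of the members.

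Genes of cohesion and anaphase had a median of 0.08, with 5 of 6 above 0 and no unadjusted p under 0.05. Cdca3, which encodes an F-box-like protein that promotes mitotic entry, had 0.24, 0.24 and 0.56 in clones 1, 2 and 3 and 0.15 in the R/R pool. All lay above 0 and clone 3 was highest. The fit was 0.25 ± 0.11 (limma adjusted p = 0.352). Pttg1, which encodes securin, the inhibitor of separase, had 0.07, 0.30 and 0.07 in the clones and 0.14 in the pool, and the separase gene Espl1 had a fitted ratio of 0.08. Sgol1, which encodes shugoshin, the guard of centromeric cohesin, had -0.14, 0.03 and -0.00 in the clones and -0.24 in the pool. Cdca5, which encodes sororin, had 0.05, and Ube2c, the ubiquitin-conjugating enzyme of the anaphase-promoting complex, 0.08.

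In cytokinesis, Anln was lower and Cep55 higher in R/R cells on every array. Anln, which encodes the contractile ring scaffold anillin, had processed intensities of 1902.5, 2256 and 2221 in R/R clones 1, 2 and 3 and 2412 in the R/R pool, against 2719, 2936, 3472 and 2977 in the WT pool. The channels did not overlap, here too with no share over all genes beside it. The log2 ratios were -0.51, -0.42 and -0.62 in the clones and -0.26 in the pool, with a fit of -0.39 ± 0.09 (1.31-fold higher in WT; limma adjusted p = 0.166). Cep55, needed for the final cut at the midbody, had 0.54, 0.07 and 0.41 in the clones and 0.17 in the pool, with a fit of 0.26 ± 0.12 (adjusted p = 0.381). Cep55 was one of the dimmer members, and its ratio was 0.33 with a smaller background offset of 16 and 0.45 by the scanner software's own ratios.

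The midzone genes stood nearer to 0. Racgap1, the GTPase-activating subunit of centralspindlin, had -0.11, -0.09 and -0.42 in clones 1, 2 and 3 and -0.04 in the R/R pool, all below 0, with a fit of -0.12 ± 0.11 (limma adjusted p = 0.609). The microtubule crosslinker gene Prc1 had a fitted ratio of 0.07 and Ect2, the exchange factor that activates RhoA at the cleavage plane, 0.05. The group median was 0.05 in the fit and -0.03 with the clones alone.

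Set side by side, the kinetochore and centromere genes had a median fitted ratio of 0.19, the kinesin motors 0.05, the condensins 0.06 and the cytokinesis genes 0.05. By array the kinetochore and centromere median was 0.25, 0.21 and 0.11 in R/R clones 1, 2 and 3 and 0.02 in the R/R pool. Over 27 further kinetochore and centromere genes outside the members the median fitted ratio was 0.05. Each of these groups had members on both sides of 0 on at least 1 array. By the scanner software's own ratios the kinetochore and centromere median was 0.26. Differences between the groups were not tested, and genes of a group share the same 4 arrays.

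Where a member had more than 1 kept probe, the fitted ratios of its probes had the same sign. Of the 53 members 39 had 1 probe and 14 more than 1. For Dlgap5 a dimmer probe gave 0.26 beside 0.40, for Cenpk 0.40 beside 0.40, and for Birc5 dimmer probes gave 0.22 and 0.15 beside 0.33. These lay within 0.2 of each other. The probes of Tpx2 lay further apart. Its second probe, dimmer and designed on another transcript record, gave -0.005 beside -0.31, so the low value of Tpx2 rests on 1 probe. Kif2c had 0.25 by its dimmer probe and 0.05 by the brighter one, and Mad2l1 had 0.20 and 0.45 by dimmer probes beside 0.17. A second Nuf2 probe was above background in neither channel of any array and was not used. Ndc80, Anln, Cenpa, Cenph, Cenpm and Bub3 have 1 kept probe each.

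**Figure D5:**
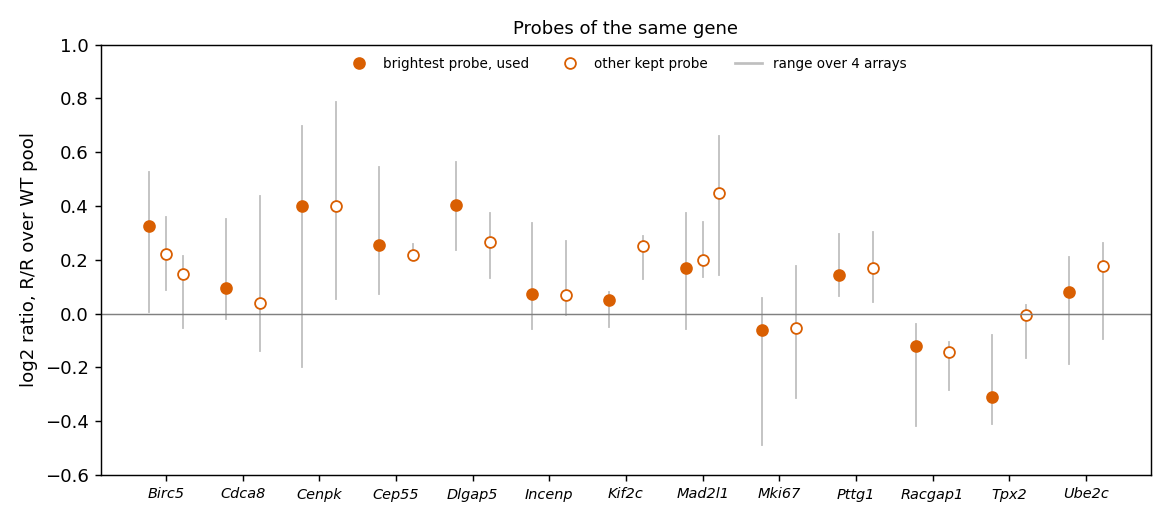
For the 13 members with more than 1 kept probe, filled points give the fitted log2 ratio, R/R over WT, of the brightest probe, open points that of the other kept probes, and lines the range over the 4 arrays. The probes of Tpx2 lie furthest apart among the genes named for a small p, at -0.31 and -0.005.

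Members with a CHR in the promoter did not stand above those without one. The median fitted ratio was 0.06 over the 34 members with TTTGAA or TTTAAA, of which 22 were above 0, and 0.14 over the 12 without, of which 10 were above 0. With a CCAAT box it was 0.08 over 32 members and without one 0.10 over 14. These are descriptions, with no test, and a match of letters does not show binding. Both the 2 lowest members, Ndc80 and Anln, and the higher Cenpa hold a CHR close to the start, as the sequences above show.

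Other genes of the same machinery had no call either. Of 66 listed genes 63 passed the filter. An unadjusted p under 0.05 was found for 10 of them (15.9%, beside 15.4% of all genes tested), 4 higher and 6 lower in R/R cells. Their fitted ratio was above 0 for 36 genes (57.1%, beside 46.4% of all genes tested), with a median of 0.02. Among kinetochore genes Cenpw, of the centromere network, had 0.31, 0.23 and 0.69 in R/R clones 1, 2 and 3 and 0.50 in the R/R pool (fit 0.45 ± 0.12, limma adjusted p = 0.186). Ska1, which with NDC80 follows shrinking microtubule ends, had -0.55, -0.38 and -0.34 in the clones and -0.29 in the pool (fit -0.36 ± 0.09, adjusted p = 0.184), and Kntc1, the ROD subunit of the checkpoint complex RZZ, had a fit of -0.28 ± 0.08. All 3 had 1 sign on the 4 arrays.

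In the spindle list the importin gene Kpna2, which holds TPX2 inactive away from chromosomes, had 0.83, 0.41 and 0.39 in the clones and 0.71 in the R/R pool (fit 0.63 ± 0.12, limma adjusted p = 0.122). Haus1, an augmin subunit gene, had a fit of -0.34 ± 0.10 and Ckap2, a microtubule-associated protein gene, 0.28 ± 0.09, each with 1 sign on all arrays. The condensin II subunit gene Ncapg2 had -0.13, -0.28 and -0.41 in the clones and -0.64 in the pool (fit -0.46 ± 0.10, adjusted p = 0.143), below 0 throughout. The other condensin II subunit genes of the list, added after their values were seen, had fits of -0.11 ± 0.10 (Ncapd3) and 0.14 ± 0.10 (Ncaph2). The cohesin release factor gene Wapal had -0.39 ± 0.14 and the cohesin cofactor gene Pds5b 0.19 ± 0.11. The motor genes Kif2a (0.20), Kif3a (-0.19) and Kif18b (0.08), and the cytokinesis genes Tsg101 (0.15), Rhoa (-0.10) and Pdcd6ip (-0.10), had no unadjusted p under 0.05.

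The genes that start mitosis had a higher median than the members described here. Over 20 mitotic entry genes the median fitted ratio was 0.24, with 16 above 0, none called and 10 with an unadjusted p under 0.05, all of them higher in R/R cells (50% of the list, beside 7.27% of all genes tested). Ccnb1, the mitotic cyclin B1 gene, had 0.54, 0.86 and 0.32 in R/R clones 1, 2 and 3 and 0.94 in the R/R pool (fit 0.76 ± 0.13, limma adjusted p = 0.0945). Its kinase gene Cdk1 had a fit of 0.49 ± 0.09 and Cks2, a Cdk1 cofactor gene, 0.51 ± 0.10. Over 30 DNA replication genes the median was 0.16, with 22 above 0, none called and 7 with an unadjusted p under 0.05, all higher (23.3%). There Fen1, which trims Okazaki fragments, had 0.42 ± 0.11 and Slbp, which binds histone mRNA, 0.29 ± 0.10. The difference between these lists and the members was not tested.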

How the data were processed

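Median spot and background intensities and processed intensities were used as deposited. Per the file headers they come from 1 scan per array, and the processed ones had local background removed and the dyes balanced by the scanner software. The log10 values, per the file headers ratios of processed Cy5 over Cy3, served as an alternative. Per the submitters' processing notes the software was Agilent Feature Extraction 11.5.

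With limma 3.58.1 in R 4.3.3, intensities were corrected by normexp (offset 50), then each array was normalised by loess, with control and outlier spots (210 to 265 per array) left out. Probes were named through their RefSeq accession: of 55681 probes 27656 had 1 symbol and 28025 had none and kept their accession. A probe was kept if well above background in either genotype's channel on at least 3 of 4 arrays (26465 probes), and the brightest per gene gave 20066 genes, 12321 with a symbol. The fit had a genotype term and a dye term, with 2 residual degrees of freedom from the clones. P-values, two-sided, measure only the spread between these clones, whose separate origin is not stated for all. All arrays were on 1 slide. The fit was tested on simulated data without a dye effect, where the planted changes were larger than any member's fitted ratio. It was not tested at ratios as small as those of the members. Promoter windows and their letters come from RefSeq tables on GRCm38.p6.

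The members, lists and tests were chosen with earlier results of these data known. Values by array are given for the 3 members of each role group with the smallest p, those with 1 sign on all arrays and an absolute fitted ratio over 0.3, and the 6 with the widest range over clones, and in other lists the 3 genes with the smallest p are named. A gene that this rule took is not reported here.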

Additional observations from a re-analysis of the deposited data

How the results depend on the processing

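Under 15 other settings no member was called, except without the dye term, where 3 were: Ndc80 at -0.61 (limma adjusted p = 0.0128), Anln at -0.45 (0.0307) and Dlgap5 at 0.41 (0.0366), in a fit that called 1135 genes in all against 103. Calls over all genes were 30 with median centring, 46 with the scanner software's ratios, 142 with the clones alone, 309 at a threshold of 0.10, and 58 to 264 with a clone left out. Members with an unadjusted p under 0.05 numbered 10 of 53 in the main fit, beside 3082 of all 20066 genes tested. With the scanner's ratios there were 4 members, beside 2606 of all genes, and with median centring 3, beside 1553. With a clone left out there were 4 to 14 members, the 4 being without clone 1. No count over all genes is given beside these last ones. The kinetochore and centromere median was 0.26 with the scanner's ratios. The passenger median was 0.0791 with the scanner's ratios, 0.11 with median centring, 0.0704 with the mean of probes, 0.20 with the clones alone, 0.15 without the dye term, 0.11 with clones 1 and 2 averaged and 0.10 to 0.12 with a clone left out. The cytokinesis median was -0.0274 with the clones alone. Signs turned for Smc2 (-0.0489), Ncapd2 (-0.0380) and Ncaph (-0.11) with the clones alone, for Ncaph without the dye term (-0.0237) and for Mki67 without clone 3 (0.0155). The cause was not tested. Another 426 values of single members kept their sign and their side of the threshold, and 25 counts stayed within 1.5 times. Another 120 medians moved by less than the SD between clones. Of these, 6 turned sign: condensin with the clones alone (-0.0793) and without the dye term (-0.0236), spindle assembly without clone 1, without clone 2 and with clones 1 and 2 averaged (-0.0444 to -0.0393), and chromosome scaffold without clone 3 (0.0155). The authors' deposited table was not run, since its rows match no probe. No paired analysis was possible because the clones and the pool share fewer than 2 replicate numbers and each array already pairs R/R with WT. Cenpf was dim on every array, with processed intensities of 34 to 50 in R/R cells and 24 to 37 in the WT pool. In 1 R/R channel it was not well above background. The offset of 50 draws the ratios of dim members such as Cenpf and Cep55 towards 0.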

Other observations

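Kifc1 and Shcbp1, chosen after their values were seen, were low in clone 3 alone. Kifc1, a minus-end motor gene from the list of other kinesins, had log2 ratios of 0.31, -0.05 and -2.32 in R/R clones 1, 2 and 3 and 0.05 in the R/R pool. Shcbp1, a midbody protein gene, had 0.14, 0.15 and -0.91 in the clones and 0.16 in the pool. With 1 array per clone these differences have no test, and neither gene had an unadjusted p under 0.05 in the fit.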
